A study of Mus musculus with 80 samples.

Results

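Fibrillar collagens were followed here through 10 genes. Of these, 5 encode chains of collagen types I, III and V (Col1a1, Col1a2, Col3a1, Col5a1 and Col5a2), and 5 encode proteins that fold, modify or trim procollagen (Serpinh1, P4ha1, P4ha2, Plod1 and Pcolce). They were taken by symbol from the deposited expression tables, and each of the 10 had 1 row in both tables, out of 12957 genes found in either. RNA was sequenced from the gastrocnemius, a mixed calf muscle, of C57BL6/J mice of both sexes. In hindlimb unloading (HU) the hind legs are held off the ground, so that the calf muscle carries no body weight, and control mice were not unloaded. Females numbered 8 at 0 h (Control) and 8 each after 24, 48 and 72 h of HU, with 7 after 168 h. There were 7 male controls, and 8, 9, 9 and 8 males after 24, 48, 72 and 168 h. The design text gives 8 per group. No transgene, drug or injury is given for any group, and each library was taken as 1 animal, which the labels do not state. The question addressed is how the sexes differ while the muscle begins to waste.

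Fibrillar collagens are the rope-like proteins that carry tension through the connective tissue around muscle fibres and through tendon, and in muscle they are made mainly by fibroblast-like cells between the fibres. Type I collagen is built from Col1a1 and Col1a2 chains, type III from Col3a1 chains alone, and type V, which sits inside type I fibrils and sets their diameter, from Col5a1 and Col5a2 chains. Inside the cell, prolines of the new chains are hydroxylated by prolyl 4-hydroxylases, whose catalytic subunits are encoded by P4ha1 and P4ha2, and lysines by the lysyl hydroxylase encoded by Plod1. Serpinh1 (HSP47) is a chaperone that binds the folded procollagen helix in the endoplasmic reticulum. Outside the cell the ends of procollagen are cut off so that fibrils can form, and Pcolce enhances the cut at the carboxy end.

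All 10 are annotated as protein coding, and their positions are those of the files, whose build is not named with certainty and is not the GRCm38.p6 of the promoter windows shown next. The type I chain genes are Col1a1 (ENSMUSG00000001506) on chromosome 11 from 94827050 to 94843868 and Col1a2 (ENSMUSG00000029661) on chromosome 6 from 4504814 to 4541544, on the plus strand. Col3a1 (ENSMUSG00000026043) is on chromosome 1 from 45350698 to 45388866 on the plus strand. Col5a2 (ENSMUSG00000026042) is on chromosome 1 from 45413481 to 45542442 on the minus strand. Col5a1 (ENSMUSG00000026837) is on chromosome 2 from 27776437 to 27929526 on the plus strand. Of the processing genes, Serpinh1 (ENSMUSG00000070436) is on chromosome 7 from 98994583 to 99002446 and P4ha1 (ENSMUSG00000019916) is on chromosome 10 from 59159118 to 59209126. The next 3 are P4ha2 (ENSMUSG00000018906) on chromosome 11 from 53990921 to 54022491, Plod1 (ENSMUSG00000019055) on chromosome 4 from 147994210 to 148021224 and Pcolce (ENSMUSG00000029718) on chromosome 5 from 137603365 to 137612046.

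Promoter sequences are shown for 3 members whose transcripts are taken up below, a type I chain, the chaperone and a hydroxylase subunit. They are the 250 bases before the annotated start site, 5′ to 3′, from RefSeq on GRCm38.p6, with every motif match in capitals.
Col1a2 promoter, chr6:4505368-4505617, plus strand: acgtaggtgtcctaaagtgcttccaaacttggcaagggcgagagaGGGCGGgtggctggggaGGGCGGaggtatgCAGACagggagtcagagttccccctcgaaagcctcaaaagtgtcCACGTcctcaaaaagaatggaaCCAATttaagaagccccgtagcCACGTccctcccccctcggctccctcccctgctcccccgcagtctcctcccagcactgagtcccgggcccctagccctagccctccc
Serpinh1 promoter, chr7:99353240-99353489, minus strand: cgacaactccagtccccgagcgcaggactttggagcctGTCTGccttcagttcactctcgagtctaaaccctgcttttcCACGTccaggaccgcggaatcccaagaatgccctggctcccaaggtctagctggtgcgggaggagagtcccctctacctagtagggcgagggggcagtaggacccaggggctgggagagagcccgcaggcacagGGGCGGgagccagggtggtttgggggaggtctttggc
P4ha1 promoter, chr10:59323046-59323295, plus strand: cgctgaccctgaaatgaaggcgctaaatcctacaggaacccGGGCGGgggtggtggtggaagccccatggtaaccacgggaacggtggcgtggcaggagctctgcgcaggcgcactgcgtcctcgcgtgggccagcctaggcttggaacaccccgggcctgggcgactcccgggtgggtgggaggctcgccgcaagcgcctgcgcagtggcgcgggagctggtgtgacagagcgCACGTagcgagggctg
The RefSeq promoter table had windows of 300 bases, from 250 before to 50 after the start site, for 8 of the 10 members, and Col1a1 and Col5a2 were not matched. Matches on either strand were sought for 6 motifs. GGGCGG is the GC box, ACGTG the core shared by hypoxia response elements and some E-boxes, CAGAC a SMAD-type element, and TATAAA and CCAAT are the TATA and CCAAT boxes. GGGCGG was found in 7 of the 8 windows (all but that of Col3a1) and in 35.66% of 32851 windows of all genes. Those 7 windows were 59.3% (Pcolce) to 75% (Col5a1) G and C, against 37.7% for Col3a1 and a median of 52.7% for all windows. The part of base composition in the count was not tested. ACGTG was found in 5, those of Col1a2, Col5a1, Serpinh1, P4ha1 and P4ha2, against 19.62% of all windows. CAGAC was found in 5, those of Col1a2, Col3a1, Col5a1, Serpinh1 and Plod1, against 49.59%. TATAAA was found in 3 (Col3a1, P4ha1 and Plod1, 13.62% of all), CCAAT in 1 (Col1a2, 37.41% of all), and the heat shock element in 0 (0.6027% of all). The TATAAA match of Col3a1 began at -117 from the start site and that of Plod1 at -232, on the opposite strand. That of P4ha1 began at base 40 after the start site, outside the bases shown. A match is a string of letters, and whether any factor binds there was not measured.

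The files give for each gene and library a signal, which is reads scaled by 1 factor per library, and the sexes were scaled in separate tables, so levels are compared within a sex alone. Estimated depth was 5570000 to 50500000 reads in females and 18000000 to 49700000 in males. The female libraries of 24 h (6420000 to 11800000 reads) and 72 h (5570000 to 9630000) were the shallowest. Of the 39 female libraries, 7 had a median rank correlation with their group under 0.95 and none of the 41 male libraries did. By time they were control replicate 7, 24 h replicates 1 and 2, 48 h replicate 5, 72 h replicates 2 and 5, and 168 h replicate 7. The calls of members that ended without them are named below. By their serial numbers in the titles, which the labels do not call batches, libraries fell into 6 runs: controls shared a run with 168 h and with 2 of the 9 libraries of 72 h in males, and with 48 h in females. At the other times, run and unloading cannot be told apart. The tissue label held, with 6 markers of skeletal muscle fibres summing to a signal of 1845140.0 to 2689130.0 in female and 3250500.0 to 5001700.0 in male controls. No gene in the tables had a highest value much below 100. The lowest value of any member in any library was 198, and the fewest estimated reads behind a member's value were 81.1, for Col5a1.

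Per kilobase of exon, the type I chains and Col3a1 led the members in control muscle and the type V chains came last. In female controls Col1a2 had 1440.5 ± 626 signal per kilobase (mean ± SD, n = 8), Col1a1 775 ± 346 and Col3a1 711 ± 249. Next came Serpinh1 with 542 ± 116 and Pcolce with 417 ± 101.5 signal per kilobase. The hydroxylase genes followed, P4ha1 with 167 ± 24.6, Plod1 with 157 ± 20.2 and P4ha2 with 155 ± 11.2, before Col5a2 with 109.4 ± 28.6 and Col5a1 with 76.9 ± 15.8. The intervals of mean ± SD of neighbours in this order overlapped except at 2 steps, from Pcolce down to P4ha1 and from P4ha2 down to Col5a2. Male controls had the same steps, between Pcolce (617 ± 123 signal per kilobase, n = 7) and P4ha1 (368 ± 41.4) and between Plod1 (294 ± 37.3) and Col5a2 (182 ± 54.4). Their highest was Col1a2 with 1707 ± 755, followed by Col3a1 with 1015 ± 510.2 and Col1a1 with 799 ± 405, and their lowest Col5a1 with 119.6 ± 31.1 signal per kilobase. The spread between animals was wide for the type I and III chains and narrow for P4ha2, with 319.7 ± 10.4 signal per kilobase in male controls.

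In unloaded females the type I and III collagen transcripts were lower at every time, and those of type I were lowest at 72 h. Changes are log2 differences from 0 h on the scale of log2(signal + 1) ± the standard error of limma, where a call is an adjusted p under 0.05 over all genes of the table. Called lower were 4 of the 5 chains at 24 h (10.9% of all genes were called lower), 5 at 48 h (17.1%), 5 at 72 h (13.2%) and 3 at 168 h (4.38%). No chain was called higher, where 13.8%, 21.0%, 16.8% and 6.30% of all genes were. The median change of the 5 chains was -0.96, -1.66, -1.79 and -1.04 at the 4 times in order, beside 0.06, 0.06, 0.03 and 0.05 for all genes.

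In females Col1a1 had a signal, from the lowest to the highest library, of 2325 to 7740.4 (median 4711) at 0 h. The libraries of 24 h had 777 to 4980.2 (median 1727) and those of 48 h 446 to 2188 (median 874). At 72 h they had 420.3 to 849.7 (median 749.9) and at 168 h 531 to 2309 (median 1067). From 48 h on, every unloaded library was below the lowest control, and at 24 h 7 of 8 were. Col1a1 fell, with changes of -1.33 ± 0.33 (adjusted p = 0.0032) at 24 h and -2.21 ± 0.33 (adjusted p = 2.6e-06) at 48 h. The change was -2.72 ± 0.33 (adjusted p = 1.5e-07) at 72 h and -2.01 ± 0.34 (adjusted p = 1.2e-04) at 168 h. At 72 h this is a 6.57-fold lower level. Col1a2, the partner chain, had a signal of 3728 to 12809 (median 8032) at 0 h. After 24 h it had 1564 to 10258 (median 3890.1) and after 48 h 1126 to 4667 (median 2178). Its signal was 906 to 1988 (median 1571) after 72 h and 1132 to 4737 (median 2099.8) after 168 h. Its groups did not overlap at 72 h, when it fell by 2.32 ± 0.32 (adjusted p = 1.0e-06). At 168 h, 6 of 7 libraries were below all controls, and it fell by 1.73 ± 0.33 (adjusted p = 4.7e-04). It fell by 1.72 ± 0.32 (adjusted p = 5.6e-05) at 48 h and fell by 0.96 ± 0.32 (adjusted p = 0.025) at 24 h. This 24 h call ended without any one of 0 h replicates 4, 7 and 8 and 24 h replicates 3 and 8 (adjusted p between 0.051 and 0.068) and without the 7 libraries that stood apart (adjusted p = 0.098).

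Col3a1, the type III chain, had a signal of 1850.3 to 6349 (median 4065) in controls. Unloading for 24 h gave 1279.9 to 4643 (median 1537) and for 48 h 624 to 2374 (median 1091). With 72 h it was 565 to 1744 (median 1179) and with 168 h 801 to 2899.9 (median 2097) in females. It fell, with changes of -0.96 ± 0.29 (adjusted p = 0.013) at 24 h and -1.66 ± 0.29 (adjusted p = 2.2e-05) at 48 h. The change was -1.79 ± 0.29 (adjusted p = 1.2e-05) at 72 h and -1.04 ± 0.30 (adjusted p = 0.018) at 168 h. The groups were separate at 72 h alone. Without the 7 libraries apart the 24 h change was -0.75 (adjusted p = 0.083). Without 168 h replicate 5 the 168 h change was -0.84 (adjusted p = 0.069).

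The changes of the type V chains were nearer to 0. Col5a1 had a signal of 496 to 863 (median 604) in mice not unloaded. Libraries taken at 24 h held 242 to 641 (median 335) and at 48 h 208 to 482 (median 326). Those of 72 h held 239 to 449 (median 367) and those of 168 h 348 to 582 (median 470.2) in females. It was below all controls in every library at 48 and 72 h. It fell by 0.78 ± 0.19 (adjusted p = 0.0021) at 24 h. Its changes were -0.95 ± 0.19 (adjusted p = 1.0e-04) at 48 h and -0.84 ± 0.19 (adjusted p = 7.5e-04) at 72 h, both called, and it was at -0.49 ± 0.19 (adjusted p = 0.10) at 168 h. With array weights, which give libraries unequal weight, the 168 h change was called (adjusted p = 0.024). Col5a2 was at -0.34 ± 0.18 (adjusted p = 0.17) at 24 h and fell by 0.53 ± 0.18 (adjusted p = 0.020) at 48 h. At 72 h it fell by 0.77 ± 0.18 (adjusted p = 0.0014) and at 168 h it was at -0.39 ± 0.19 (adjusted p = 0.20). Its groups overlapped at every time, with 290.0 to 519 (median 424) at 72 h, against 445 to 1004 (median 699) in controls. The 48 h call of Col5a2 ended without any one of 0 h replicate 7 and 48 h replicates 6 and 7 (adjusted p between 0.051 and 0.052) and without the libraries apart (adjusted p = 0.071) or with array weights (adjusted p = 0.12). The 24 h change was called without 24 h replicate 6 (adjusted p = 0.045).

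**Figure D1:**
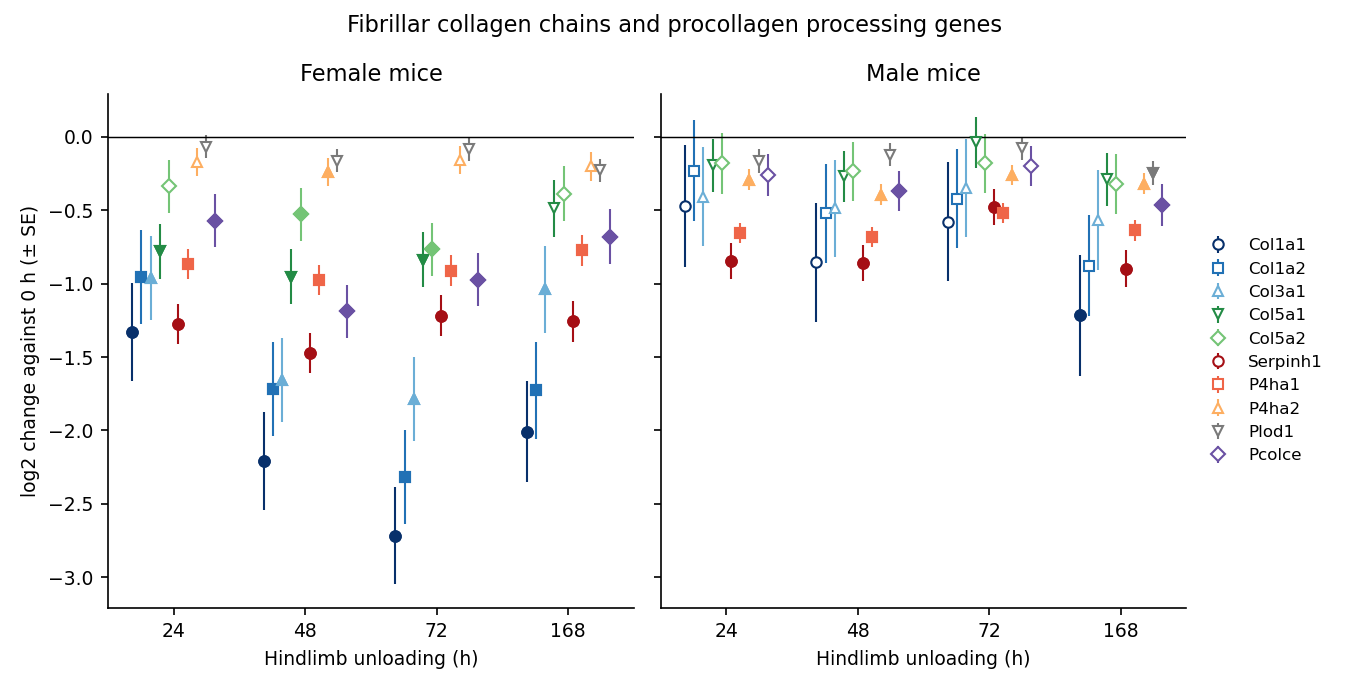
Log2 change from 0 h (vertical axis, log2 of signal + 1, points ± standard error of limma) of the 10 members at 24, 48, 72 and 168 h of unloading (horizontal axis), females left and males right. Filled points are called at an adjusted p under 0.05 and open points are not. The female Col1a1 point at 72 h is at -2.72, while the called points of males at 24 h are those of Serpinh1, P4ha1 and P4ha2.

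Among the processing genes, Serpinh1 and P4ha1 were low in females from 24 h on with no overlap with controls at any time. Serpinh1 had a signal of 899.9 to 1684 (median 1371) at 0 h. The libraries of 24 h had 413 to 715 (median 533) and those of 48 h 316 to 574 (median 466). At 72 h they had 372 to 716 (median 566) and at 168 h 406 to 651 (median 533). It fell, with changes of -1.27 ± 0.14 (adjusted p = 2.3e-08) at 24 h and -1.47 ± 0.14 (adjusted p = 3.3e-10) at 48 h. The change was -1.22 ± 0.14 (adjusted p = 3.3e-08) at 72 h and -1.26 ± 0.14 (adjusted p = 9.5e-08) at 168 h. The P4ha1 signal was 530.0 to 846 (median 669.9) at 0 h. After 24 h it had 297 to 467 (median 386) and after 48 h 284 to 381 (median 349). Its signal was 261 to 479 (median 358) after 72 h and 346 to 432 (median 419.5) after 168 h. This hydroxylase subunit fell, with changes of -0.87 ± 0.10 (adjusted p = 1.3e-07) and -0.97 ± 0.10 (adjusted p = 5.5e-09) at 24 and 48 h. It was at -0.91 ± 0.10 (adjusted p = 3.5e-08) and -0.77 ± 0.11 (adjusted p = 3.9e-06) at 72 and 168 h. Every unloaded library was below the lowest control.

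Pcolce, the enhancer of carboxy-end trimming, had a signal of 525 to 974 (median 657) in controls. Unloading for 24 h gave 264 to 652 (median 512) and for 48 h 198 to 393 (median 329). With 72 h it was 266 to 525 (median 338) and with 168 h 313 to 684 (median 434) in females. It fell, with changes of -0.57 ± 0.18 (adjusted p = 0.018) at 24 h and -1.19 ± 0.18 (adjusted p = 2.9e-06) at 48 h. The change was -0.97 ± 0.18 (adjusted p = 8.7e-05) at 72 h and -0.68 ± 0.19 (adjusted p = 0.014) at 168 h. The groups were separate at 48 and 72 h, and the 24 h call ended without 24 h replicate 3 (adjusted p = 0.054). P4ha2 and Plod1 overlapped the controls at every time. P4ha2 had 239.8 to 417 (median 308) at 48 h, against 316 to 396 (median 366) in controls. It fell by 0.24 ± 0.10 (adjusted p = 0.045), which was not called without any one of 0 h replicates 2, 3, 4, 5, 7 and 8 and 48 h replicates 2, 3, 6 and 7 (adjusted p between 0.056 and 0.13) or with the signal rescaled to the library total (adjusted p = 0.15). At 24, 72 and 168 h it was at -0.17 ± 0.10 (adjusted p = 0.19), -0.16 ± 0.10 (adjusted p = 0.21) and -0.20 ± 0.10 (adjusted p = 0.20). Plod1 was at -0.07 ± 0.08 (adjusted p = 0.56) at 24 h and -0.16 ± 0.08 (adjusted p = 0.095) at 48 h. It was at -0.08 ± 0.08 (adjusted p = 0.45) at 72 h and -0.23 ± 0.08 (adjusted p = 0.062) at 168 h. Its 168 h change was called without any one of 0 h replicate 3, 48 h replicate 7 and 72 h replicate 5 (adjusted p between 0.039 and 0.049). It was also called with array weights (adjusted p = 0.0095) and quantile normalization (adjusted p = 0.049), and with quantile normalization at 48 h too (adjusted p = 0.027). Over all 10 members, 7, 9, 8 and 6 were called lower in females at 24, 48, 72 and 168 h. Of all genes 10.9%, 17.1%, 13.2% and 4.38% were. Over the whole course 8 of 10 passed the test, which 43.2% of all genes passed (P4ha2 adjusted p = 0.22, Plod1 0.12).

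**Figure D2:**
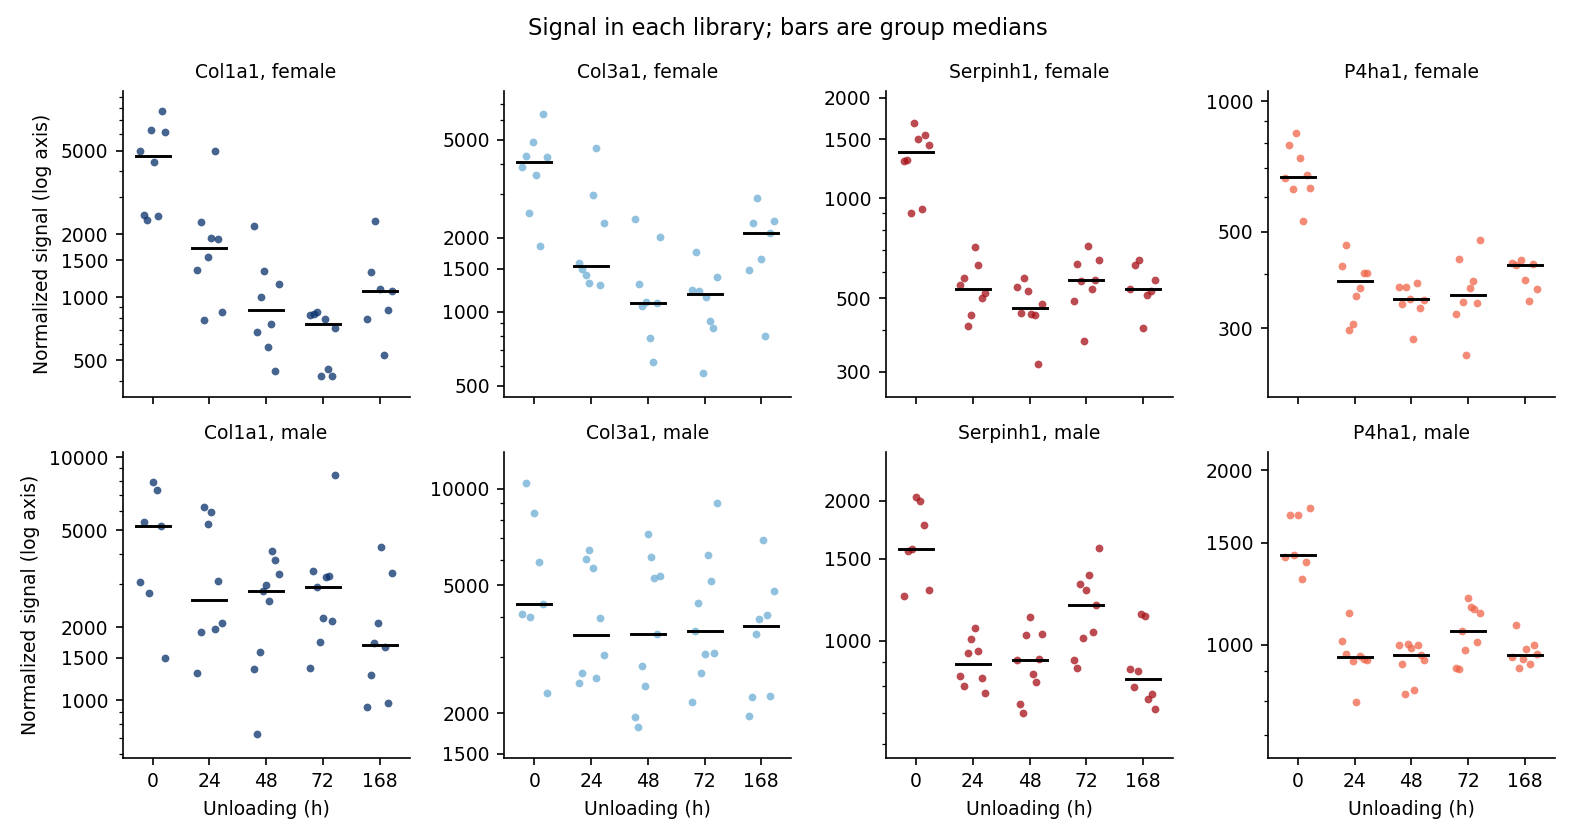
Signal of Col1a1, Col3a1, Serpinh1 and P4ha1 in each library (vertical log axis) by hours of unloading (horizontal axis), with bars at group medians. Females and males are in panels of their own because the tables were scaled separately. In females the unloaded Serpinh1 libraries lie at 316 to 716, below all controls (900 to 1684), while male Col1a1 libraries at 72 h reach 8431 and overlap the controls (1491 to 7887).

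Between unloading times, the type I chains went on falling in females from 24 to 72 h, times that share a run and a shallow depth. At 72 h against 24 h, Col1a1 was at -1.38 ± 0.33 (adjusted p = 0.0056) and Col1a2 at -1.36 ± 0.32 (adjusted p = 0.0047). These were the 2 of 10 members called, where 5.85% of all genes were called lower. Col3a1 was at -0.82 ± 0.29 (adjusted p = 0.053) in the same comparison. At 48 h against 24 h the 1 member called was Pcolce (3.54% of all genes were called lower), with -0.62 ± 0.18 (adjusted p = 0.034). This call ended without any one of 24 h replicates 1, 2, 4 and 5 and 48 h replicates 4, 6 and 7 (adjusted p between 0.052 and 0.098). It also ended when rescaled to the library total, with quantile normalization, with array weights and without the libraries apart (adjusted p = 0.071, 0.053, 0.39 and 0.19). At 72 h against 48 h limma called 0 of 10 (0.244% of all genes were called lower), with 0 at an unadjusted p under 0.05. At 168 h against 72 h it called 0 as well (2.22% of all genes), with 2 at an unadjusted p under 0.05. These were Col3a1 at 0.75 ± 0.30 (adjusted p = 0.17) and Col1a1 at 0.71 ± 0.34 (adjusted p = 0.28). All 5 chains were above 0 in this last comparison, with a median of 0.59.

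In unloaded males most calls were those of processing genes. Called lower were 3 of 10 members at 24 h (14.4% of all genes were called lower), 4 at 48 h (14.7%), 3 at 72 h (5.22%) and 6 at 168 h (11.5%). Serpinh1, P4ha1 and P4ha2 were among them each time. No member was called higher, where 14.8%, 16.3%, 5.61% and 11.0% of all genes were at the same times. At 24 h limma called 0 of the 5 chains, with 0 at an unadjusted p under 0.05.

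Serpinh1 had a signal of 1249.7 to 2040.1 (median 1573) in mice not unloaded. Libraries taken at 24 h held 773 to 1063 (median 891) and at 48 h 700.0 to 1125 (median 909.7). Those of 72 h held 872 to 1579.5 (median 1192) and those of 168 h 714 to 1143 (median 827) in males. It was separate from controls at 24, 48 and 168 h, with changes of -0.85 ± 0.12 (adjusted p = 3.0e-06), -0.86 ± 0.12 (adjusted p = 1.4e-06) and -0.90 ± 0.12 (adjusted p = 2.3e-06). It overlapped them at 72 h, when it fell by 0.48 ± 0.12 (adjusted p = 0.0074). With the 7 male libraries at 72 h outside the controls' run alone, the change was -0.37 (adjusted p = 0.0565). Serpinh1 at 72 h was higher than at 24 h by 0.37 ± 0.12 (adjusted p = 0.036) and than at 48 h by 0.38 ± 0.11 (adjusted p = 0.030). It was the 1 member called in each (4.54% and 3.45% of all genes were called higher). The call against 24 h ended without any one of 24 h replicates 1, 2, 7 and 8 and 72 h replicates 3, 5, 6, 8 and 9 (adjusted p between 0.052 and 0.079). The call against 48 h ended without any one of 48 h replicates 2, 3 and 6 and 72 h replicates 3, 5, 6 and 9 (adjusted p between 0.053 and 0.080). At 168 h against 72 h it was at -0.42 ± 0.12 (adjusted p = 0.091). In that comparison limma called 0 members (0.171% of all genes were lower), with 2 at an unadjusted p under 0.05.

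P4ha1 in males had a signal of 1299.8 to 1721 (median 1428) at 0 h. The libraries of 24 h had 798 to 1132 (median 951) and those of 48 h 824 to 1002 (median 959.7). At 72 h they had 907 to 1204 (median 1057) and at 168 h 911 to 1080.4 (median 958). No group overlapped the controls. It fell, with changes of -0.65 ± 0.07 (adjusted p = 2.0e-08) at 24 h and -0.68 ± 0.07 (adjusted p = 3.5e-09) at 48 h. The change was -0.52 ± 0.07 (adjusted p = 3.8e-06) at 72 h and -0.64 ± 0.07 (adjusted p = 3.3e-08) at 168 h, which is inside the controls' run. P4ha2, the other catalytic subunit, fell in males at every time, with changes of -0.29 ± 0.07 (adjusted p = 0.0017) and -0.39 ± 0.07 (adjusted p = 3.3e-05) at 24 and 48 h. It was at -0.26 ± 0.07 (adjusted p = 0.010) and -0.32 ± 0.07 (adjusted p = 0.0011) at 72 and 168 h. Its signal was 495 to 629.9 (median 569.8) at 48 h, against 717 to 785 (median 751) in controls. The groups overlapped at 72 h alone, where the change in the 7 libraries outside the controls' run had an adjusted p of 0.0731. Pcolce was at -0.26 ± 0.14 (adjusted p = 0.17) at 24 h and -0.20 ± 0.14 (adjusted p = 0.40) at 72 h. It fell by 0.37 ± 0.14 (adjusted p = 0.038) at 48 h and fell by 0.46 ± 0.14 (adjusted p = 0.016) at 168 h. The 48 h call of Pcolce ended without any one of 0 h replicates 2, 4, 5 and 6 and 48 h replicates 1, 2, 3, 4 and 6 (adjusted p between 0.054 and 0.095) and with array weights (adjusted p = 0.082), while with these the 24 h change was called (adjusted p = 0.046). Plod1 fell by 0.25 ± 0.08 (adjusted p = 0.023) at 168 h, a call that ended without any one of 0 h replicates 2 and 5 (adjusted p between 0.062 and 0.067). It was at -0.16 ± 0.08, -0.12 ± 0.08 and -0.08 ± 0.08 at 24, 48 and 72 h, none called with all libraries. That at 24 h was called without 24 h replicate 5 (adjusted p = 0.037) and with array weights (adjusted p = 0.032).

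The male chains were all below 0 at each time and were called lower for Col1a1 at 168 h alone, with libraries that spread widely. Col1a1 had a signal of 1491 to 7887 (median 5219.6) at 0 h. After 24 h it had 1293 to 6262 (median 2587) and after 48 h 726 to 4102 (median 2812). Its signal was 1361 to 8431 (median 2935) after 72 h and 939 to 4294 (median 1687) after 168 h in males. It was at -0.47 ± 0.41 (adjusted p = 0.42) at 24 h, -0.86 ± 0.40 (adjusted p = 0.10) at 48 h and -0.58 ± 0.40 (adjusted p = 0.40) at 72 h. At 168 h it fell by 1.22 ± 0.41 (adjusted p = 0.030). Of the 168 h libraries 3 of 8 were below the lowest control. The call ended without any one of 0 h replicates 2, 4, 5 and 6 and 168 h replicates 1, 2 and 7 (adjusted p between 0.051 and 0.079). The 48 h change of Col1a1 was called without 0 h replicate 7 (adjusted p = 0.035).

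Col1a2 in males had a signal of 2985 to 13485 (median 10541) in controls. Unloading for 24 h gave 3696 to 12881 (median 7081) and for 48 h 2510.2 to 9572 (median 6311). With 72 h it was 3684 to 14650.2 (median 5945) and with 168 h 2565 to 9283 (median 4316). It was at -0.88 ± 0.34 (adjusted p = 0.062) at 168 h, with -0.23 ± 0.34, -0.52 ± 0.34 and -0.42 ± 0.34 at 24, 48 and 72 h. The 168 h change was called without any one of 0 h replicate 7, 48 h replicate 2 and 168 h replicate 5 (adjusted p between 0.014 and 0.048) and with array weights (adjusted p = 0.019). Col3a1 was at -0.41 ± 0.34, -0.49 ± 0.33, -0.35 ± 0.33 and -0.57 ± 0.34 at 24, 48, 72 and 168 h, none of them called. The type V chains ranged from -0.04 ± 0.17 (Col5a1 at 72 h) to -0.32 ± 0.21 (Col5a2 at 168 h). The median of the 5 chains was -0.23, -0.49, -0.35 and -0.57 in males at the 4 times, beside 0.01, 0.01, -0.0044 and -0.00036 for all genes. At 48 h against 24 h, which share a run, limma called 0 of 10 members (0.0156% of all genes were lower), with 0 at an unadjusted p under 0.05. Over the whole course 3 of 10 passed, Serpinh1, P4ha1 and P4ha2, where 37.2% of all genes did.

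Set against each other in one model of both tables, the changes of females and males differed at 72 h in 3 of 10 members. All 3 were further down in females (0.803% of all shared genes were called in that direction). For Col1a1 the female change minus the male change was -2.14 ± 0.53 (adjusted p = 0.014). It was -1.90 ± 0.47 (adjusted p = 0.014) for Col1a2 and for Serpinh1 -0.74 ± 0.19 (adjusted p = 0.017). Without female 72 h replicate 4 the Serpinh1 difference had an adjusted p of 0.051. With the signal rescaled to the library total it was -0.67 (adjusted p = 0.0564). Pcolce was at -0.77 ± 0.23 (adjusted p = 0.052), Col3a1 at -1.44 ± 0.44 (adjusted p = 0.060), P4ha1 at -0.39 ± 0.12 (adjusted p = 0.063) and Col5a1 at -0.80 ± 0.26 (adjusted p = 0.078). Each of these 4 was called on leaving out one of certain single libraries (22, 7, 7 and 1 of 80). Without the 7 female libraries apart 7 members were called. The share of all shared genes called in that setting is not given, so the rise is no result about the members. P4ha2 (0.10 ± 0.12), Plod1 (-0.01 ± 0.11) and Col5a2 (-0.59 ± 0.28) were not called with all libraries.

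At 24, 48 and 168 h limma called 0 of 10 female minus male differences (0.0182%, 0.0638% and 0.00912% of all shared genes were called lower), with 2, 7 and 0 at an unadjusted p under 0.05. Shares of all genes at that unadjusted threshold are not given, here or for the counts above. Counts at an unadjusted p are therefore no result about the members. The 48 h difference of Pcolce was called without female 48 h replicate 1 (adjusted p = 0.049). At 48 h the difference of Col1a1 was -1.35 ± 0.53 (adjusted p = 0.27) and that of Serpinh1 -0.61 ± 0.19 (adjusted p = 0.13). At 168 h Col1a1 was at -0.79 ± 0.54 (adjusted p = 1.0). The female 72 h libraries were the shallowest. Since no female 72 h library and 2 of 9 male 72 h libraries share a run with their controls, the part of run and depth in the 72 h difference was not tested. The comparisons inside a run fall at unlike times, 48 h in females and 168 h in males, so they do not compare the sexes. For Col1a1 the female one gave -2.21 ± 0.33 and the male one -1.22 ± 0.41.

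**Figure D3:**
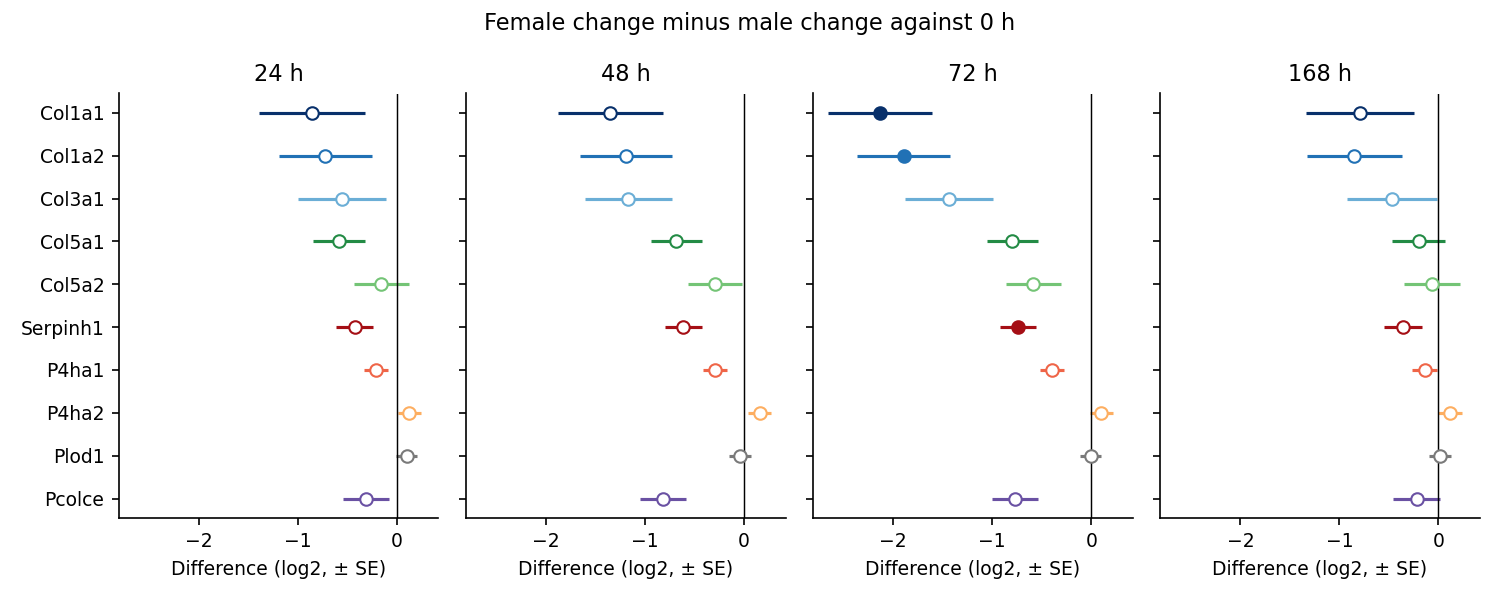
Female change minus male change from 0 h (horizontal axis, log2, points ± standard error of limma) for the 10 members (vertical axis) in panels for 24, 48, 72 and 168 h. Filled points are called at an adjusted p under 0.05. Col1a1 (-2.14), Col1a2 (-1.90) and Serpinh1 (-0.74) at 72 h are the filled points, left of 0.

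Within groups, the chains varied together from animal to animal. After each group's mean was taken away, Pearson's r between Col1a1 and Col1a2 was 0.98 over 39 female and 0.96 over 41 male libraries, as a description. Among pairs of the 5 chains, female r values were 0.63 to 0.98 and male ones 0.80 to 0.96. Pcolce had an r with Col1a1 of 0.73 in females and 0.82 in males, and Serpinh1 of 0.67 and 0.60. P4ha1 had 0.37 in females and 0.05 in males, the lowest of the 9 other members in males. The points share library depth and scaling.

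The proportions of the chains changed as well, in a comparison added after seeing the data. The log2 ratio of 2 chains was tested by an exact two-sided permutation test over libraries, with 16 tests adjusted together. Col1a1 over Col1a2, each per kilobase, was 0.536 ± 0.0208 (mean ± SD) in female controls. In unloaded females it was 0.415 ± 0.0443 after 24 h, 0.383 ± 0.0403 after 48 h, 0.409 ± 0.0506 after 72 h and 0.442 ± 0.0292 after 168 h. Every unloaded female library was below the lowest control, whose ratios ran from 0.501 to 0.562. The log2 ratio fell, with changes of -0.37, -0.49, -0.40 and -0.28 at 24, 48, 72 and 168 h, each at the smallest p the permutations can give (0.000155, adjusted p = 0.000622). The 48 h value is inside the controls' run. In males the log2 ratio fell by 0.33 at 48 h (exact permutation, adjusted p = 0.00879) and fell by 0.34 at 168 h (0.018). It was at -0.24 at 24 h (0.0628) and -0.16 at 72 h (0.295). The 24 h value was called without any one of 24 h replicates 4 and 5 (adjusted p between 0.027 and 0.034). Whether the ratio changed more in females than in males was not tested.

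Col3a1 gained on Col1a1 at the later times. In females the log2 ratio of Col3a1 over Col1a1 was higher by 0.93 at 72 h (exact permutation, adjusted p = 0.00249) and 0.97 at 168 h (0.00332). It was at 0.37 at 24 h (0.276) and 0.55 at 48 h (0.0628). The 48 h value was called without any one of 0 h replicate 2 and 48 h replicates 4 and 6 (adjusted p between 0.011 and 0.040). In males it was higher by 0.65 at 168 h (exact permutation, adjusted p = 0.00932). It was at 0.07, 0.37 and 0.23 at 24, 48 and 72 h, none called. Per kilobase, Col3a1 over Col1a1 was 1.84 ± 0.344 at 72 h in females, and 72 and 168 h were not tested against each other. At 168 h it was 1.90 ± 0.436 in females and 2.08 ± 0.366 in males, against 0.994 ± 0.366 and 1.37 ± 0.432 in their controls (ratio per kilobase, mean ± SD).

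The 6 genes outside the members that varied most like the 5 chains within groups were ranked in each sex. In females they were Fn1, the matrix protein fibronectin (r = 0.90 with the mean of the chains, 39 libraries), Col6a1 (0.89), Fstl1 (0.86), Sparc, a collagen-binding glycoprotein (0.86), Col6a2 (0.85) and Col6a3 (0.85), the last 2 being type VI collagen chains like Col6a1. In males they were Col6a1 (0.95, 41 libraries), Loxl2, a lysyl oxidase that crosslinks collagen (0.93), Sparc (0.92), Ctsk, a collagen-cutting protease (0.90), Serpinf1 (0.89) and Fstl1 (0.88). Over all other genes the median r was -0.06 in females and -0.03 in males, and the 95th percentile 0.41 and 0.44. Of the 6 genes named in each sex, 3 were named in both (Col6a1, Sparc and Fstl1).

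Companion genes of the pathway were read from 5 lists, chosen with results of these data known. Of 6 other fibrillar collagen genes 4 were measured in each sex. Females had 2, 3, 3 and 2 called lower at 24, 48, 72 and 168 h and males 1, 1, 0 and 1, with none higher. Of all genes, 10.9%, 17.1%, 13.2% and 4.38% were called lower in females at these times and 14.4%, 14.7%, 5.22% and 11.5% in males. Col11a1, a chain of type XI collagen, fell in females by 1.18 ± 0.36 (adjusted p = 0.0085) at 48 h, and its change at 72 h was -2.07 ± 0.36 (adjusted p = 3.2e-05). At 168 h it fell by 1.29 ± 0.37 (adjusted p = 0.019) in females and fell by 1.04 ± 0.34 (adjusted p = 0.024) in males. These calls ended without 168 h replicate 7 (adjusted p = 0.057) in females or without any one of 0 h replicates 4, 5 and 6 and 168 h replicate 7 (adjusted p between 0.052 and 0.070) in males. The female call also ended without the libraries apart (adjusted p = 0.071), and the male one in a fit of both groups alone (adjusted p = 0.058). Without the libraries apart the female calls of Col11a2 at 168 h (adjusted p = 0.13) and Col5a3 at 24 h (adjusted p = 0.10) ended as well. Col24a1 fell in females by 1.43 ± 0.34 (adjusted p = 0.0016) at 72 h. Its mean signal was 81.7 in controls and 34.6 at 72 h, and that of Col11a1 was 122 and 30.2. In the female 72 h libraries 1 read was a signal of 1.69 to 2.82. Since genes under about 100 in every library are absent, genes this low can have entered through high controls. That favours a fall, so the female calls of Col24a1 and Col11a1, also in the counts above, carry little weight. Col11a2, another chain of type XI, fell in females by 1.42 ± 0.28 (adjusted p = 1.0e-04) at 48 h and 1.24 ± 0.28 (adjusted p = 8.0e-04) at 72 h.

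Other enzymes and chaperones of procollagen had calls in both directions. In females 5, 9, 8 and 5 of 20 measured were called lower at 24, 48, 72 and 168 h and 3, 5, 3 and 1 higher. In males it was 3, 4, 2 and 7 of 21 lower and 3, 3, 1 and 2 higher. The female shares are 25%, 45%, 40% and 25% lower, above those of all genes just given, and 15%, 25%, 15% and 5% higher, against 13.8%, 21.0%, 16.8% and 6.30% of all genes. The male shares of 14.3%, 19%, 9.52% and 33.3% lower are close to those of all genes at 24 h and above them at the later times. Those higher, 14.3%, 14.3%, 4.76% and 9.52%, are at or below the 14.8%, 16.3%, 5.61% and 11.0% of all genes. Fkbp14, a prolyl isomerase of the endoplasmic reticulum, fell by 0.69 ± 0.12 (adjusted p = 3.5e-05) in females and fell by 0.62 ± 0.10 (adjusted p = 9.7e-06) in males at 24 h. It was called lower in all 8 comparisons, though not in males at 72 h with the 2 libraries of the controls' run alone (adjusted p = 0.408). Crtap, part of the prolyl 3-hydroxylation complex, fell in females by 0.96 ± 0.21 (adjusted p = 0.0011) at 24 h and 1.16 ± 0.21 (adjusted p = 5.2e-05) at 48 h. P4hb, the protein disulfide isomerase that is the other subunit of prolyl 4-hydroxylase, rose in males at every time and in females at 48 and 72 h. It was not called in females at 24 and 168 h, and it was called lower there at 168 h against 72 h. Its change was 0.57 ± 0.09 (adjusted p = 1.7e-05) in females at 72 h. In males it was 0.28 ± 0.07 (adjusted p = 0.0014), 0.38 ± 0.07 (adjusted p = 2.8e-05), 0.23 ± 0.07 (adjusted p = 0.016) and 0.34 ± 0.07 (adjusted p = 2.6e-04) at 24, 48, 72 and 168 h. The 72 h call of P4hb in males ended without 0 h replicate 4 (adjusted p = 0.054) and with the 7 libraries outside the controls' run alone (adjusted p = 0.0731). Tmem38b, a channel of the endoplasmic reticulum, rose in females by 0.66 ± 0.13 (adjusted p = 1.8e-04) at 24 h and 0.89 ± 0.13 (adjusted p = 9.3e-07) at 48 h. Creb3l1, a transcription factor that in mouse bone drives Col1a1, fell in females by 1.08 ± 0.30 (adjusted p = 0.014) at 168 h. Its mean signal was 54.7 in controls and 24.5 at 168 h. A gene needed about 100 in some library to be listed, so high controls can have favoured this fall.

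Of genes for propeptide cleavage, crosslinking and fibril assembly, females had 3, 7, 5 and 4 of 11 measured called lower and 1, 1, 0 and 0 higher. Males had 1, 1, 0 and 2 of 12 lower and 1, 1, 0 and 0 higher. The shares called lower are 27.3%, 63.6%, 45.5% and 36.4% in females, each above that of all genes (10.9%, 17.1%, 13.2% and 4.38%). In males they are 8.33%, 8.33%, 0% and 16.7%, below that of all genes (14.4%, 14.7%, 5.22% and 11.5%) except at 168 h. The female 24 h count includes Loxl2, whose call ended without the libraries apart (adjusted p = 0.054). Bmp1, the protease that cuts the carboxy end and is aided by Pcolce, fell in females by 0.65 ± 0.12 (adjusted p = 6.2e-05) at 48 h. Fn1 fell in females, with changes of -0.81 ± 0.21 (adjusted p = 0.0044) at 24 h and -1.32 ± 0.21 (adjusted p = 6.2e-06) at 48 h. The change was -1.56 ± 0.21 (adjusted p = 7.1e-07) at 72 h and -0.94 ± 0.22 (adjusted p = 0.0034) at 168 h. Fbn1, a microfibril protein, fell by 1.39 ± 0.22 (adjusted p = 6.2e-06) at 48 h. Sparc fell in females by 1.34 ± 0.21 (adjusted p = 1.1e-05) at 72 h and 1.20 ± 0.22 (adjusted p = 3.4e-04) at 168 h. The 1 gene called higher was Lox, the lysyl oxidase that starts crosslinking, which rose in males by 0.68 ± 0.23 (adjusted p = 0.026) at 24 h and 0.64 ± 0.23 (adjusted p = 0.027) at 48 h. It was also called higher in females at 24 and 48 h. In males its 24 h call ended without any one of 0 h replicate 2 and 24 h replicates 3, 4 and 7 (adjusted p between 0.052 and 0.056). Its 48 h call ended without any one of 0 h replicate 2 and 48 h replicates 2 and 6 (adjusted p between 0.052 and 0.057).

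Genes of collagen breakdown and uptake were called lower in 2, 4, 5 and 2 of 10 measured in females and 1, 1, 1 and 2 of 11 in males. The female shares of 20%, 40%, 50% and 20% are above the 10.9%, 17.1%, 13.2% and 4.38% of all genes. The male ones of 9.09%, 9.09%, 9.09% and 18.2% are below all genes at 24 and 48 h (14.4% and 14.7%) and above them at 72 and 168 h (5.22% and 11.5%). Mmp15, a membrane-bound metalloproteinase, fell in all 8 comparisons, by 1.31 ± 0.16 (adjusted p = 7.3e-08) in females and 0.73 ± 0.11 (adjusted p = 7.8e-06) in males at 48 h. The male 72 h call ended without any one of 0 h replicates 3, 4, 5 and 7 and 72 h replicates 1, 2, 4 and 7 (adjusted p between 0.055 and 0.081), when rescaled to the library total (adjusted p = 0.063) and with the 7 libraries outside the controls' run alone (adjusted p = 0.19). Mrc2, a receptor that takes up collagen fragments, fell in females by 0.71 ± 0.15 (adjusted p = 4.4e-04) at 72 h. The 1 gene called higher at each time in females was Timp4, an inhibitor of metalloproteinases, with 0.90 ± 0.18 (adjusted p = 3.9e-04) at 24 h and 0.98 ± 0.19 (adjusted p = 5.6e-04) at 168 h. No gene of the list was called higher in males. Of collagen receptors and TGF-beta genes, 2, 3, 1 and 1 of 18 in females and 4, 3, 1 and 3 of 21 in males were lower. These are 11.1%, 16.7%, 5.56% and 5.56% in females and 19%, 14.3%, 4.76% and 14.3% in males, some above and some below the shares of all genes (10.9%, 17.1%, 13.2% and 4.38%, and 14.4%, 14.7%, 5.22% and 11.5%), so the counts are no result about the list. In females 1, 4, 2 and 1 were higher and in males 2, 2, 0 and 2. Tgfb3, a ligand of the pathway that drives collagen synthesis, fell in all 8 comparisons, by 0.49 ± 0.09 (adjusted p = 9.2e-05) in females and 0.45 ± 0.09 (adjusted p = 1.4e-04) in males at the times of its lowest values. Tgfbr3, a co-receptor, rose by 0.76 ± 0.12 (adjusted p = 5.3e-06) in females at 48 h. Ccn2, a target of TGF-beta, rose in females by 0.58 ± 0.21 (adjusted p = 0.028) at 72 h. This was not called without any one of 0 h replicate 5 and 72 h replicates 1 and 3 (adjusted p between 0.053 and 0.059).

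**Figure D4:**
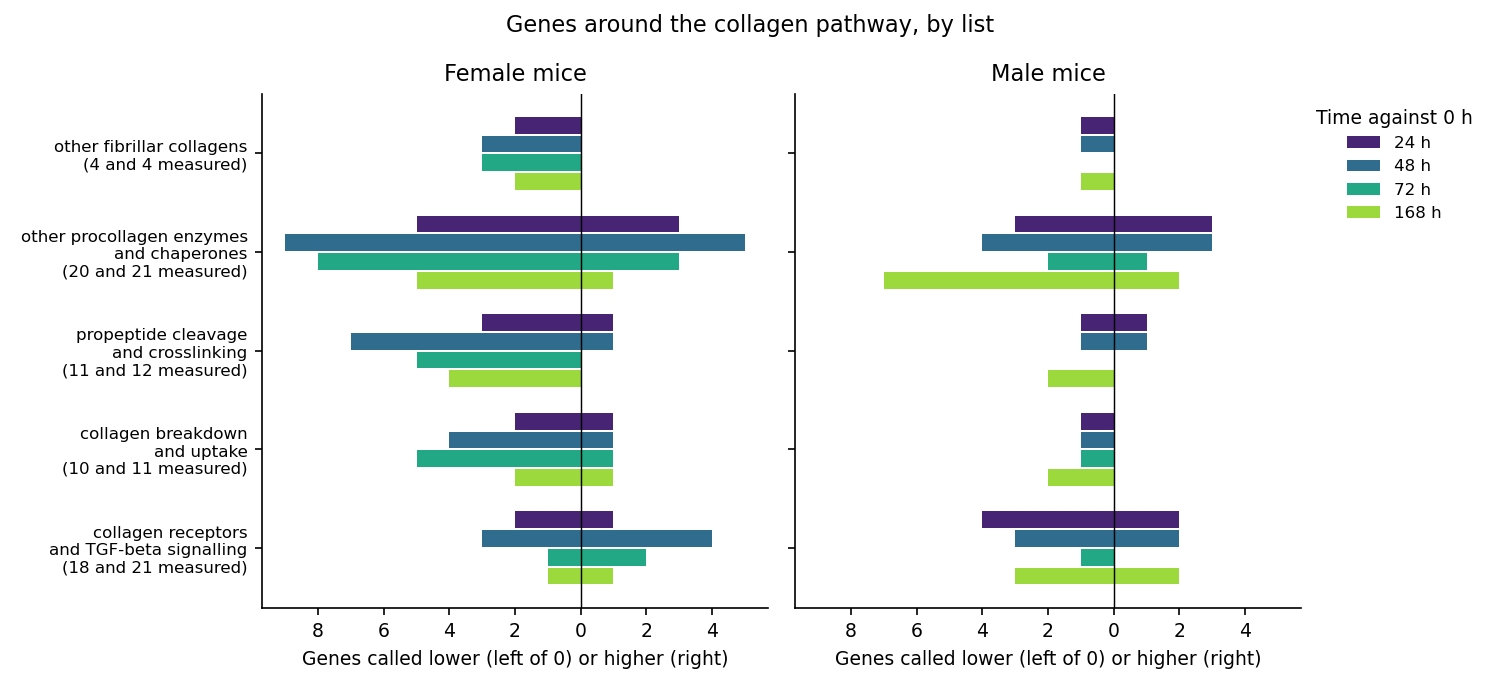
Number of genes of each companion list called lower (bars to the left) and higher (bars to the right) at an adjusted p under 0.05. Bars are given for each unloading time against 0 h, with females and males in separate panels. The longest bars to the left are those of the other procollagen enzymes in females at 48 h, with 9 of 20, beside 5 to the right.

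Some markers of cells that make these proteins were called lower beside the members, mostly in females, and others were not. In a bulk sample fewer cells of a type and less RNA per cell cannot be told apart. Of 7 tenocyte markers 6 were measured in each sex. Of these 2, 5, 5 and 2 were called lower in females at 24, 48, 72 and 168 h, against 1, 1, 0 and 2 in males. Of all genes, 10.9%, 17.1%, 13.2% and 4.38% were called lower in females at these times and 14.4%, 14.7%, 5.22% and 11.5% in males. The male counts of 1 of 6 at 24 and 48 h are near these shares and are no result about tenocytes. Scx was measured in females alone and Mkx in males alone. Kera fell in females, with changes of -1.07 ± 0.36 (adjusted p = 0.028) at 24 h and -1.94 ± 0.36 (adjusted p = 6.3e-05) at 48 h. The change was -2.40 ± 0.36 (adjusted p = 4.7e-06) at 72 h and -1.49 ± 0.38 (adjusted p = 0.0074) at 168 h. Tnmd fell by 2.39 ± 0.37 (adjusted p = 7.6e-06) at 72 h. The 24 h call of Kera ended without any one of 0 h replicates 7 and 8 and 24 h replicates 3 and 8 (adjusted p between 0.060 and 0.075). Of the other tenocyte calls, that of Scx at 24 h in females ended on leaving out any one of 24 of 39 libraries. Those of Fmod at 48 h and Thbs4 at 72 h ended on leaving out any one of 7 and 8. Without the libraries apart Fmod at 48 h (adjusted p = 0.079), Thbs4 at 72 h (adjusted p = 0.079) and Tnmd at 168 h (adjusted p = 0.055) were not called in females. When rescaled to the library total Fmod at 48 h and Thbs4 at 72 h were not called either (adjusted p = 0.063 and 0.088). In males Kera at 24 h and 168 h and Comp at 168 h ended on leaving out any one of 7, 1 and 5 of 41, and Kera at 48 h with array weights (adjusted p = 0.057). The summed tenocyte signal in females was 4001 to 10783 in controls and 1838 to 7887, 1493 to 7091, 2491 to 5118 and 3269.9 to 6172 after 24, 48, 72 and 168 h. In males it was 7451 to 17191 in controls and 6026 to 13336, 5707 to 19570.1, 7093 to 16864 and 4221 to 14562 after the same times. Tendon cells make much type I collagen, and how much tendon each sample held is not given. No tenocyte marker was at 0 in any library.

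Of 8 markers of fibro-adipogenic progenitors, the fibroblast-like cells between the fibres, 2, 5, 4 and 1 were called lower in females and 0, 0, 0 and 1 in males. The shares of all genes were 10.9%, 17.1%, 13.2% and 4.38% in females and 14.4%, 14.7%, 5.22% and 11.5% in males. The male count of 1 of 8 at 168 h is near its share. Both female calls at 24 h, Cd34 and Lum, ended without the libraries apart (adjusted p = 0.087 and 0.11). Gsn (24 h) and Dcn (48 h) were called higher in males, where 14.8% and 16.3% of all genes were. Each call ended without any one of 5 libraries, when rescaled to the library total and with quantile normalization. Lum fell in females by 1.45 ± 0.22 (adjusted p = 3.2e-06) at 72 h. Pdgfra, the receptor that defines these cells, was at -0.07 ± 0.17 (adjusted p = 0.79) at that time. Pdgfra, Dcn and Gsn were not called in females at any time. The summed signal of all 8 markers was 26410.5 to 39024 at 72 h, against 27071 to 40649 in female controls, with none at 0 in any library. Beside these, all 5 red blood cell markers were lower in females at 72 h, where 13.2% of all genes were. Their summed signal was 6294 to 13485, against 9739 to 31954 in controls. The slow fibre gene Myl3, abundant in the adjoining soleus muscle, was lower in females at 48, 72 and 168 h and in males at 168 h. Myh7 and Tnnt1, the other slow fibre markers listed, were not called in either sex at any time. The call of Hba-a1 among the red blood cell markers ended without any one of 0 h replicate 7 and 72 h replicate 7 (adjusted p between 0.051 and 0.058). That of Myl3 at 48 h ended without any one of 0 h replicates 1, 4, 7 and 8 and 48 h replicates 6 and 7 (adjusted p between 0.055 and 0.14) and with array weights (adjusted p = 0.061). Those of Hba-a1 and Hba-a2 ended with array weights (adjusted p = 0.089 and 0.058), and that of Hba-a1 without the libraries apart (adjusted p = 0.055).

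Of 5 endothelial markers, Kdr, a receptor for vascular growth factor, fell in females at all 4 times, by 0.95 ± 0.17 (adjusted p = 2.7e-05) at 48 h, and in males at 24, 48 and 168 h. Emcn fell in females at 48 and 72 h and in males at every time, and the female calls ended when rescaled to the library total (adjusted p = 0.069 and 0.061), that of 48 h also with array weights (adjusted p = 0.11). Cldn5 was called higher in males at every time and in females at 24 h, the female call ending without the libraries apart (adjusted p = 0.12). Pecam1 was called higher in males at 24 h (0.24 ± 0.08, adjusted p = 0.022) and 48 h (0.27 ± 0.08, adjusted p = 0.0073). Its 24 h call ended when rescaled to the library total (adjusted p = 0.13) and with quantile normalization (adjusted p = 0.060). It also ended without 0 h replicate 2 (adjusted p = 0.083). Cdh5 was not called in either sex. The summed endothelial signal was 2294 to 3442 at 72 h, against 2538 to 4379 in female controls. Of 4 adipocyte markers Car3, which muscle fibres also express, fell in females at 24, 48 and 72 h, by 1.06 ± 0.17 (adjusted p = 4.2e-06) at 48 h, and in males at 48 h with Plin1. The male calls ended on leaving out any one of 6 libraries of 41 for Car3 and 21 for Plin1, and both with array weights (adjusted p = 0.063 and 0.11). The summed adipocyte signal, which includes Car3, was 22666 to 41637 at 48 h, against 50953 to 74021 in female controls. The other markers were not lower in females at 48 h. Adipoq was at 0.41 ± 0.34 (adjusted p = 0.35), Cfd at 0.26 ± 0.30 (adjusted p = 0.52) and Plin1 at 0.12 ± 0.37 (adjusted p = 0.82). The sum is therefore no measure of adipocytes. Of 6 fibre markers 0, 3, 3 and 1 were lower in females and 0, 0, 0 and 1 in males at 24, 48, 72 and 168 h. At these times 10.9%, 17.1%, 13.2% and 4.38% of all genes were called lower in females and 14.4%, 14.7%, 5.22% and 11.5% in males. All 3 smooth muscle markers measured were lower in males at 48 h, where the calls of Tagln and Myh11 ended on leaving out any one of 12 and 3 libraries. Mrc1 was the 1 macrophage marker of 6 called, lower in females at 72 h, which is near the share of all genes. No Schwann cell marker was called in either sex at these times. None of these markers was at 0 in any library. The part of these cells in the changes of the collagen genes was not tested.

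The authors' deposited table of comparisons listed the members lower in nearly the same places. At a deposited FDR under 0.05 it held 7, 9, 8 and 7 of the 10 lower in females at 24, 48, 72 and 168 h and 3, 4, 3 and 7 in males, with 0 higher. The share of all genes at that deposited FDR was not taken, so these counts show nothing particular to the members. The 168 h counts are 1 above those of limma in each sex, through Plod1 in females (deposited FDR 0.0231) and Col1a2 in males (0.0343). In the authors' deposited table the ratio of Col1a1 at 72 h over 0 h was 0.144 in females and 0.671 in males.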

How the data were processed

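RNA from 80 gastrocnemius libraries was quantified by the submitters in separate tables by sex, of 11068 genes for females and 12853 for males. Per the submitters' processing notes, Partek, DESeq2 and STAR 2.7.8a were used, without stated roles, and both mm39 and mm10 are listed as builds. The deposited values are a signal, not read counts: per the file headers the sheet is called raw data, but the values are estimated reads over 1 size factor per library, and no gene stays under about 100 in all libraries. The deposited table of the authors' comparisons, named after DESeq2 per the file headers, gives a ratio and a p-value with its FDR step up for each time over 0 h. Depth was estimated from the signal of 1 read, found from low values (2 to 120) that were whole reads within 0.03 reads in 54.0% to 71.8% of cases; about 6% would be by chance.

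Tests on counts had been planned and limma was used instead, because the tables hold a normalized signal. limma 3.58.1 (R 4.3.3) was fitted to log2(signal + 1) with all 5 groups of a sex in 1 model, and with 10 groups over the 10964 shared genes for female minus male changes, with trend and robust moderation, two-sided tests and Benjamini-Hochberg adjustment over all genes of a table. A call is an adjusted p under 0.05. P-values measure the spread between libraries, which were taken as animals. The models were tested on simulated data. Levels per kilobase used the exons of GENCODE on mm10, matched by gene identifier. Chain ratios were tested by exact permutation with numpy, a comparison chosen after seeing the data. Tables were handled with the R package data.table (version 1.17.8) and pandas 2.3.3, and figures drawn with matplotlib 3.10.9 (numpy 2.4.6, Python 3.11.15).

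The members and lists were chosen with earlier results of these data known. All 10 members were to be named in every comparison. Of each companion list, values are given for examples among the 3 genes with the smallest p in a comparison with 0 h, and for likeness the 6 genes with the highest r in each table. Alternatives were a pseudocount of 10, a mean of at least 50, rescaling to the total signal, quantile normalization, array weights, plain moderation, leaving out the libraries that stood apart (a median rank correlation with their group under 0.95), splits by run, fits of the compared groups alone, and each library left out.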

Additional observations from a re-analysis of the deposited data

Results flagged for a closer look

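Single libraries stood far from their group in 7 of 100 sets of a member and a group, where chance gives about 1 in 20. Female 24 h replicate 6 was the highest of its group for Col1a1, at a signal of 4980.2 with the next library at 2291, and for Col1a2, at 10258 with the next at 4661. Male 72 h replicate 9 was the highest for Col1a1 (8431, next 3407), Col1a2 (14650.2, next 8413) and Col5a1 (1498, next 1101.5). Col1a2 in female 168 h replicate 3 was at 4737, with the next library at 2421. Plod1 in female 48 h replicate 7 was the lowest of its group at 409, with the next at 483.

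The change from 0 h differed between the sexes at 72 h for 3 members by the test of the difference itself, with a female minus male change of -2.14 for Col1a1, -1.90 for Col1a2 and -0.74 for Serpinh1. All 8 female libraries at 72 h were below the mean of their controls for each of these genes.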

How the results depend on the processing

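No paired analysis was possible because replicate numbers were given by record order and name no shared animal, litter or day.

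Counts of members called changed by over 1.5 times under a few settings. With array weights 5 were called in males at 24 h, 1 at 168 h against 72 h and 6 over the male course. With the 72 h libraries outside the controls' run alone 1 was called in males at 72 h, and rescaled to the total signal 2 were called at 72 h against 24 h. At 48 h against 24 h in females 0 were called when rescaled, with quantile normalization, with array weights and without the libraries apart. The female minus male count at 72 h was 5 with quantile normalization, 7 with array weights and 7 without the libraries apart. Shares of all genes called under other settings are not given, so changed counts are no result about the members. On leaving out 1 library, counts ran from 0 to 1 (males, 72 h against 24 h, 72 h against 48 h and 168 h against 72 h), 3 to 6 (male course), 0 to 2 (females, 48 h against 24 h), 2 to 4 (females, 72 h against 24 h), 0 to 1 (female minus male, 48 h) and 2 to 7 (female minus male, 72 h).

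Signs reversed for values near 0 that were not called. Col5a1 in males at 72 h was at 0.0197 with array weights and between -0.12 and 0.0523 on leaving out a library, and Plod1 was at 0.0091 in males at 72 h outside the controls' run and at 0.0037 in females at 72 h when rescaled. The female minus male difference of Plod1 was 0.018 (rescaled) and 0.044 (array weights) at 48 h, 0.059, 0.068 and 0.0046 (the same and without the libraries apart) at 72 h, and -0.022 (quantile normalization) at 168 h; on leaving out a library it ran from -0.0771 to 0.0084, -0.0471 to 0.0435 and -0.0197 to 0.0658. That of Col5a2 was 0.0902 with array weights and 0.0751 without the libraries apart at 24 h, 0.11 and 0.00030 at 168 h, and ran from -0.16 to 0.0347 there. Col3a1 over Col1a1 in males at 24 h ran from -0.0348 to 0.17. The cause was not tested. Rescaling to the total moved the median of all genes by more than 0.1 in log2 in females at 48 h (0.102) and 72 h (0.115) against 0 h, at 48 h (0.101) and 72 h (0.124) against 24 h, and in the female minus male change at 48 h (0.103).

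Over 314 single results, 2106 of 2205 values under other settings kept both direction and side of the threshold, 69 lost a call, 17 gained one and 13 reversed, and 14331 of 14754 values without 1 library did so. The female 24 h and 72 h libraries were the shallowest, and no test related depth to precision.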
